A study of Mus musculus with 21 samples.

Results

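RNA sequencing of mouse striatum was compared between 3 libraries from animals given a virus labelled GCas9 and 3 libraries from animals given a virus labelled Cas9. These 6 libraries, of 21 in the series, were chosen by the number in their titles, which places them in the first of 2 sets of libraries (9 libraries). The other 3 libraries of that set are labelled WT and served as a reference and in the estimate of the spread. All mice were wild type, and striatal tissue was taken 3 weeks after adeno-associated virus (AAV, a carrier that does not replicate) was put into the striatum. One label gives the age as 3 weeks and another as 3 months, and the labels do not say whether the WT animals received a virus. Neither the promoter and serotype of the virus nor a guide RNA is given, and GCas9 is not spelled out. The labels do not say whether replicates came from separate animals. The p-values measure only the spread between these libraries, which may in part be technical.

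Cas9 is the bacterial nuclease used for genome editing. It cuts both strands of DNA where a guide RNA pairs with it, and after delivery by AAV it can persist in neurons, which no longer divide. The study is known for a form of Cas9 joined to a part of Geminin (Gmnn), a protein that blocks a second round of DNA replication and is destroyed in part of the cell cycle after the anaphase-promoting complex marks it with ubiquitin. The title of the series places the shorter life of such a Cas9 beside toxicity to neurons, so the comparison asks how striatal RNA differed between the 2 forms. The striatum is built mainly of spiny projection neurons, which release GABA, with interneurons, glia and vessels around them.

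Reads on genes numbered 20.337 to 24.335 M (mega) per library in the 6 libraries, and mitochondrially encoded transcripts took 5.997 to 7.568% of them. Markers of spiny projection neurons were abundant in every library, as the labelled tissue would have: Ppp1r1b (DARPP-32) had 53417 to 67909 normalized reads and Penk (enkephalin) 46136 to 59503. By Xist and Y-linked transcripts, replicate 3 of each group came from a female and the others from males, so sex was balanced between the groups. The libraries of a group were not alike. On the first principal component of the 6 libraries (52.5% of the variance), GCas9 replicate 3 lay at -69.2 and Cas9 replicate 1 at -22.9, while Cas9 replicate 2 and GCas9 replicate 2 lay at 46.4 and 40.1. GCas9 replicate 3 was the highest of the 6 libraries in 23.1% of the genes tested. Cas9 replicate 1 was the highest in 22.3% and the lowest in 25.5%. The median standard deviation between replicates on the log2 scale was 0.146 in Cas9 and 0.127 in GCas9, against 0.101 in WT.

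No gene passed the test between GCas9 and Cas9. Of 15924 genes averaging 10 or more normalized reads, 0 had a limma adjusted p under 0.05, and the smallest was 0.89. All differences below are log2 differences of normalized count + 1, GCas9 minus Cas9, with the standard error of that fit, where 1 is a 2-fold difference. An unadjusted p under 0.05 was found for 868 genes (5.45%), 379 higher in GCas9 (2.38%) and 489 lower (3.07%). With no difference at all, 796 would be expected. The WT libraries, which varied less between replicates, entered the spread behind these p-values and the intervals below. A limma fit of the 6 virus libraries alone gave 568 of 16024 genes, 227 higher and 341 lower, with a smallest adjusted p of 0.999. The 3 GCas9 libraries lay all above the 3 Cas9 libraries in 700 genes (4.4%) and all below them in 708 (4.45%), together 8.84% of the genes tested. With 3 libraries per group, many genes lie apart with no difference at all, so this count is a description and not a finding. The median 95% confidence interval reached 0.26 to each side of the estimate, and for 83.3% of genes the whole interval lay between -1 and 1. Differences of 2-fold or more were thus outside the interval of these genes. With edgeR on recovered reads 0 genes were called (925 at an unadjusted p under 0.05), with DESeq2 4, and with limma weights for single libraries 932 (5.85%), of which 505 were higher and 427 lower. Because no gene passed the main test, the groups of genes below are described by counts, medians and values of each library. Genes named below for a small p or a large difference were chosen among genes whose groups did not overlap. For them that separation is thus no separate result.

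Genes of DNA replication and mitosis were higher in GCas9 than in Cas9 in the large majority of cases, though 0 of them passed the test (0% of all genes). In the list of S phase and mitosis, 33 of 35 genes had a difference above 0, against 54.3% of all genes, and the median difference was 0.81, against 0.012 over all genes. The 3 GCas9 libraries lay above all Cas9 libraries in 18 of the 35 (4.4% of all genes), and 19 had an unadjusted p under 0.05 in this direction (2.38% of all genes). The mean log2 level of the list was 6.69, 6.17 and 7.34 in GCas9 replicates 1 to 3, 6.03, 5.94 and 6.12 in Cas9 and 6.37, 5.97 and 6.39 in WT. All GCas9 libraries were thus above all Cas9 libraries, replicate 2 by the least, and GCas9 replicates 1 and 3 were also above every WT library. In bulk tissue, more cells of a type and more RNA per cell cannot be told apart.

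**Figure D1:**
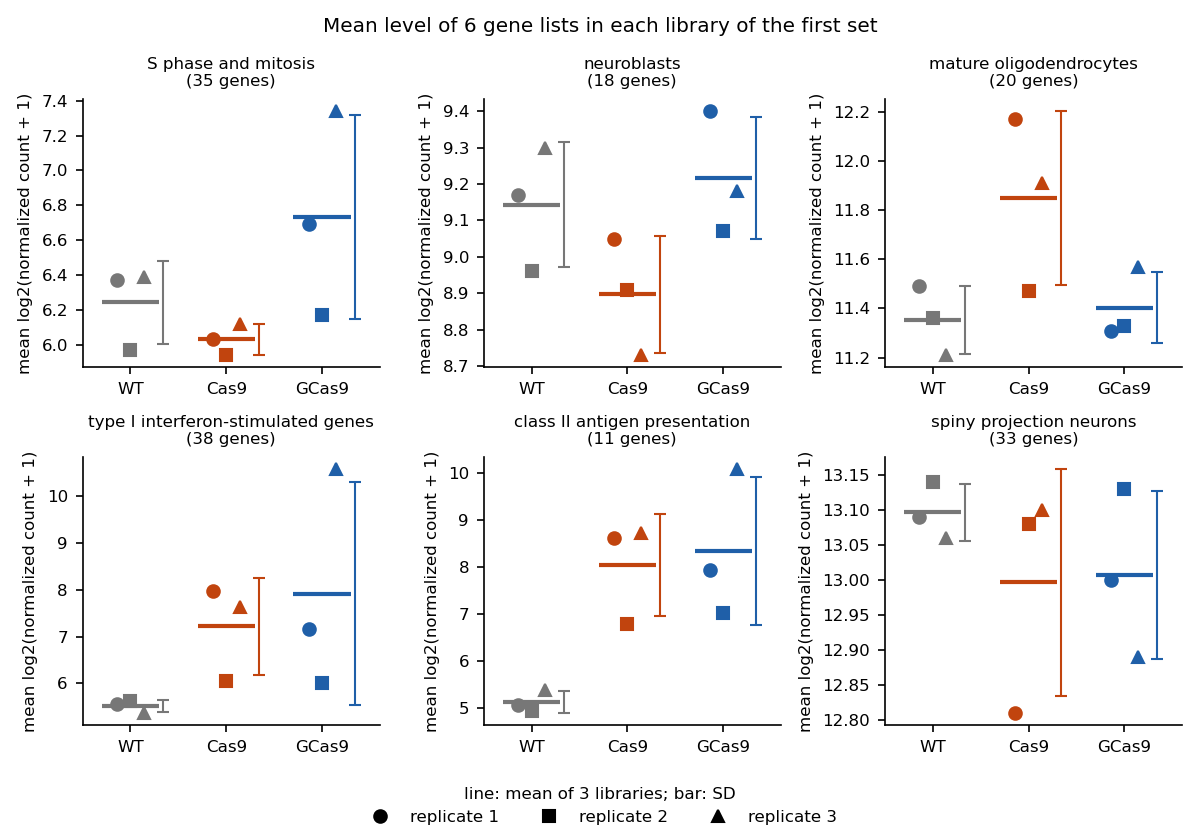
Mean log2(normalized count + 1) of 6 gene lists (vertical axis) in the 3 WT, 3 Cas9 and 3 GCas9 libraries of the first set, each symbol 1 library, with the mean of the group as a line and the SD as a bar. The S phase and mitosis list is higher in all GCas9 than in all Cas9 libraries, the interferon and class II lists are led by GCas9 replicate 3 (10.57 and 10.09), and the mature oligodendrocyte list is led by Cas9 replicates 1 and 3 (12.17 and 11.91).

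Cdca8 (chr4:124918465-124939311, GRCm38, minus strand), a subunit of the chromosomal passenger complex that steers chromosomes in mitosis, had 92.0, 77.8 and 118 normalized reads in the GCas9 libraries. In the Cas9 libraries it had 47.8, 50.3 and 53.6, and in WT 74.1, 66.4 and 101. Every GCas9 library exceeded every Cas9 library, and every WT library did so as well. The difference was 0.89 ± 0.21 (SE, n = 3 against 3), with an adjusted p of 0.89 in limma.

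Ccna2, cyclin A2, which drives S phase and entry into mitosis, had 222, 188 and 265 normalized reads in GCas9, 145, 165 and 115 in Cas9 and 167, 159 and 140.4 in WT. Its difference was 0.67 ± 0.17, and here the GCas9 libraries also lay above the WT libraries. Top2a, the topoisomerase that untangles DNA in dividing cells, had 379, 216 and 699 normalized reads in GCas9 and 158, 147 and 188 in Cas9, a difference of 1.23 ± 0.36. GCas9 replicate 3 stood far above the others in this gene, and replicate 2 was nearest to the Cas9 libraries. Kif11, the motor that builds the mitotic spindle, ranged over 119.9 to 248 in GCas9 and 75.9 to 111 in Cas9 (difference 0.89 ± 0.25).

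Rrm2, the subunit of ribonucleotide reductase made in S phase, had 145, 85.4 and 205 normalized reads in GCas9 and 48.9, 71.0 and 73.8 in Cas9 (1.09 ± 0.34). Bub1b, of the spindle checkpoint, had 112, 54.0 and 135 against 49.9, 42.4 and 42.5 (1.05 ± 0.34). Cdk1, the kinase of mitosis, had 54.7, 31.3 and 150.4 against 30.2, 25.6 and 29.3 (1.15 ± 0.53). In all 3 genes the groups did not overlap, as the rule that named them required. GCas9 replicate 3 was the highest library in each, and GCas9 replicate 2 lay just above the Cas9 libraries. Anln, named here after its value was seen, was the one gene of the list with an unadjusted p under 0.05 in the other direction (-0.41 ± 0.16). It encodes anillin, which acts in cell division and is also made by myelinating oligodendrocytes.

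**Figure D2:**
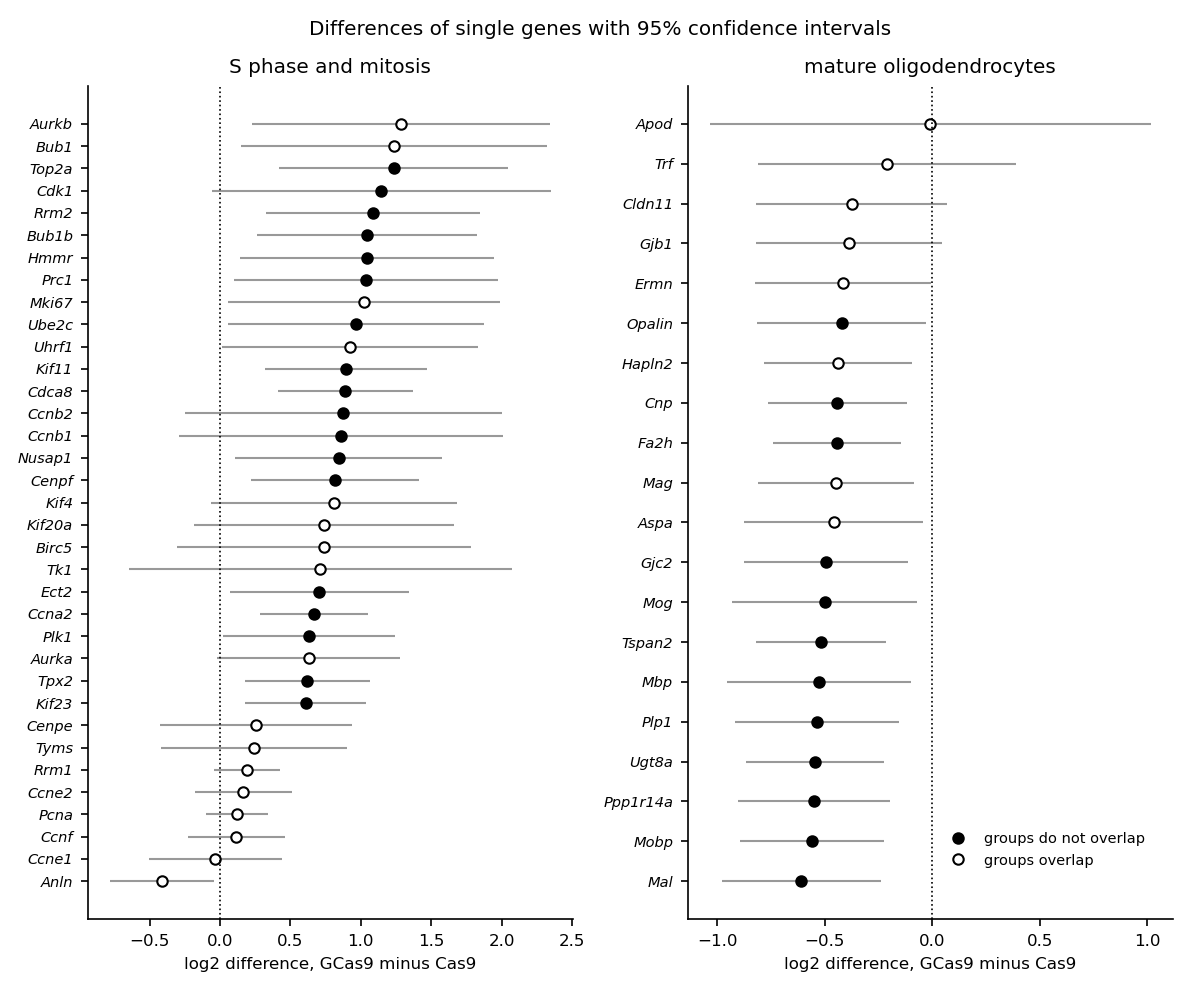
Log2 difference between GCas9 and Cas9 (horizontal axis) with its 95% confidence interval for each gene of the S phase and mitosis list (left, 35 genes) and of the mature oligodendrocyte list (right, 20 genes), filled where the 3 GCas9 libraries do not overlap the 3 Cas9 libraries. Of the left list 33 of 35 lie above 0, and of the right list 20 of 20 lie below 0, with 0 genes past the test in either.

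Immune cell transcripts followed part of this pattern. GCas9 replicate 3 was the highest library both for the S phase and mitosis list and for markers of T and NK cells. Of 22 T and NK cell genes tested, 17 were higher in GCas9 and 5 lower. Without GCas9 replicate 3 only 15 passed the filter on mean reads, 2 higher and 13 lower. Some of the 22 were thus tested only because that library was high, which favours a higher sign in GCas9. The 22 genes of the list summed to 4063, 3640 and 7096 normalized reads in GCas9, 4166, 3693 and 4576 in Cas9 and 4067, 4002 and 3522 in WT. The sums of WT were thus near those of most virus libraries, while its T and NK cell scores (mean log2 level of the list) were lower, at 2.36, 2.43 and 2.77. With scores this low, the WT sums rested on a few abundant members and do not measure how many such cells were present. Cd8a, which marks only some T cells, had 6.71, 2.16 and 81.4 normalized reads in GCas9, 14.6, 0 and 18.2 in Cas9 and 0, 0 and 0.989 in WT. Outside GCas9 replicate 3 these counts were low. Cas9 replicates 1 and 3 were above GCas9 replicates 1 and 2 in this gene, and only GCas9 replicate 3 was above them. Cas9 replicates 1 and 3, with T and NK cell scores of 5.25 and 5.5, above the 3.83 of GCas9 replicate 1 and the 3.37 of GCas9 replicate 2, had lower S phase and mitosis scores than either. Without GCas9 replicate 3, 31 of the 35 genes of S phase and mitosis were still higher in GCas9, with a median of 0.5 and 8 genes at an unadjusted p under 0.05 in this direction (1.73% of all genes in that fit). The part of immune cells in the difference was not tested.

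Promoters are shown for 3 of these genes because cell cycle genes often share the cell cycle homology region TTTGAA, which the DREAM and MuvB complexes are known to bind, and for Isg15 as an interferon gene described below. In RefSeq promoter windows (GRCm38.p6, 250 bases before to 50 after the start of a gene, both strands), a listed gene counted when any of its entries held the letters. By this count TTTGAA occurred in 18 of 30 genes with an entry in the S phase and mitosis list (60.0%). In the mature oligodendrocyte list it occurred in 2 of 15 (13.3%), and over all 32851 entries, counted per entry, in 17.9%. The 2 kinds of share are not strictly alike, since a gene with several entries had more chances than a single entry. The CCAAT box occurred in 24 of the 30 (80.0%) and in 37.4% of all entries. The interferon-stimulated response element (TTTC, then any 2 bases, then TTTC) occurred in 14 of 27 type I interferon-stimulated genes with an entry (51.9%), in 1 of the 30 of S phase and mitosis (3.3%) and in 3.4% of all entries. A match describes letters and not binding. The windows below run from 250 bases before to 30 after the RefSeq start, which for Cdca8 lies inside the gene position given above, from another annotation. They are printed 5′ to 3′ on the strand of the gene, with the matches in capitals (TTTGAA or its reverse complement TTCAAA in the first 3, and overlapping matches to the response element on the opposite strand in Isg15).
Cdca8 (chr4:124936888-124937167, minus strand): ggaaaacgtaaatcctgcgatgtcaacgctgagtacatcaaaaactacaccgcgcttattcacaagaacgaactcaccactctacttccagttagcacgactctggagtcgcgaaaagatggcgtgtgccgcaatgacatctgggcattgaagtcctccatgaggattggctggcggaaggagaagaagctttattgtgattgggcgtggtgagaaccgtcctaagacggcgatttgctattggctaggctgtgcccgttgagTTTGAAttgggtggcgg
Top2a (chr11:99024160-99024439, minus strand): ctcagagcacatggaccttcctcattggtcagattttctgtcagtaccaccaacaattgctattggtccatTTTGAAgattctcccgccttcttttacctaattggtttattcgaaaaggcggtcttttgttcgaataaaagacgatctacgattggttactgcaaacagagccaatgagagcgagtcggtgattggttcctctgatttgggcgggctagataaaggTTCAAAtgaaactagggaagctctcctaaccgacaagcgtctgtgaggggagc
Kif11 (chr19:37376132-37376411, plus strand): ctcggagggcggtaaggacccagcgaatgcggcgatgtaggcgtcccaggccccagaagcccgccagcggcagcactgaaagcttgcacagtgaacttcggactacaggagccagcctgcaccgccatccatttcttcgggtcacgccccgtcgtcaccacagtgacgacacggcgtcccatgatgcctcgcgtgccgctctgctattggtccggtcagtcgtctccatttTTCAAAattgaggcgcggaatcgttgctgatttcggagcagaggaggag
Isg15 (chr4:156200789-156201068, minus strand): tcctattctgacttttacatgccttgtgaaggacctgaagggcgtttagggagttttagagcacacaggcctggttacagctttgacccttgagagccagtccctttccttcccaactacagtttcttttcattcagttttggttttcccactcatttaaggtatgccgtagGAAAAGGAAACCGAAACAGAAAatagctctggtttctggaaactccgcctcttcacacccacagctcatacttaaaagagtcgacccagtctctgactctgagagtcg

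Most genes that license DNA for replication, among them Geminin itself, differed in the same direction, with a smaller median. Of 22 genes in the list of Geminin and replication licensing, 18 were above 0 with a median of 0.21, 6 did not overlap in the higher direction (4.4% of all genes) and 1 in the lower direction (4.45%). The exception in size was Gmnc, a relative of Geminin that acts in ciliated cells, named here after its value was seen. It had 214, 5.92 and 7.08 normalized reads in Cas9 and 20.1, 6.48 and 2.26 in GCas9 (-1.51 ± 1.24), so that Cas9 replicate 1 alone was high. Endogenous Gmnn (chr13:24751845-24761923) had 111, 97.2 and 90.5 normalized reads in GCas9, 87.3, 86.8 and 92.0 in Cas9 and 103, 106 and 96.9 in WT. GCas9 replicate 3 lay among the Cas9 libraries, so the groups overlapped, and the difference was 0.16 ± 0.13 with a 95% confidence interval of -0.13 to 0.45. Whether reads from a viral Geminin fragment could be counted there is not given in the sources used here.

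Mcm5, a subunit of the helicase that opens DNA at origins, had 275, 246 and 382 normalized reads in GCas9 and 186, 206 and 217 in Cas9 (0.54 ± 0.17). Mcm4, of the same helicase, had 447, 387 and 456 against 362, 365 and 332 (0.28 ± 0.09). Cdc7, the kinase that starts origins, had 643, 538 and 602 against 478, 521 and 486 (0.26 ± 0.10). The groups were apart in all 3, with the smallest gap in Cdc7. Without GCas9 replicate 3 the median of the licensing list was 0.08.

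Genes of the anaphase-promoting complex, the ubiquitin ligase that marks Geminin, had a median difference of 0.04. Of 19, 15 lay above 0 (54.3% of all genes), 5 were apart in the higher direction (4.4%) and 1 in the lower (4.45%). The largest differences were in the activator Cdc20 (68.1, 59.4 and 101 normalized reads in GCas9, 51.0, 35.5 and 54.6 in Cas9, 0.67 ± 0.25) and the ubiquitin-conjugating enzyme Ube2c (56.6, 31.3 and 111 against 31.2, 27.6 and 29.3, 0.97 ± 0.40). Both are themselves made mainly in mitosis. The core subunit Anapc11 had a difference of -0.14 ± 0.07.

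Genes of DNA double-strand break repair were slightly higher in GCas9. Of 32, 26 lay above 0 with a median of 0.11, 6 were apart in the higher direction (4.4% of all genes) and 0 in the lower (4.45%). H2afx, the histone variant that is phosphorylated beside breaks, had 720.1, 685 and 725 normalized reads in GCas9, 496, 633 and 549 in Cas9 and 623, 622 and 651 in WT (0.35 ± 0.09). All GCas9 libraries were above all Cas9 and all WT libraries. Slx4, a scaffold of nucleases that resolve joined DNA, had 932, 889 and 955 against 764, 785 and 820.3 in Cas9 (0.23 ± 0.05), while the WT libraries had 907, 892 and 927. For Slx4 it was the Cas9 libraries that stood below both other groups.

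Chek1, the checkpoint kinase of replication stress, differed by 0.60 ± 0.24 without overlap. Fancd2, of the Fanconi anaemia pathway, differed by 0.65 ± 0.22 with overlap, since Cas9 replicate 2 had 146 normalized reads and GCas9 replicate 2 139. Both are also raised in S phase.

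Targets of p53, the factor that DNA damage activates, showed little difference. Their median was 0.08, with 24 of 31 genes above 0 (54.3% of all genes), and 0 were apart in either direction (8.84% of all genes). Cdkn1a (p21), which arrests the cell cycle, had 561, 379 and 726 normalized reads in GCas9 and 370.2, 357 and 389 in Cas9 (0.53 ± 0.19). GCas9 replicates 1 and 3 were the highest libraries, and GCas9 replicate 2 lay within the Cas9 range. Ccng1 (cyclin G1) had 1314, 1129 and 1389.9 in GCas9, 1428, 1047 and 1164 in Cas9 and 826, 922 and 755 in WT. Both virus groups were above WT in Ccng1 and overlapped each other (0.08 ± 0.13, interval -0.21 to 0.37).

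Markers of neuroblasts, the young neurons and their progenitors that are born at the ventricle beside the striatum, were also higher in GCas9. Of 18 genes, 15 lay above 0 with a median of 0.3, and 7 were apart in the higher direction (4.4% of all genes). Dcx (doublecortin), a microtubule protein of migrating neurons, had 1095, 1016 and 923 normalized reads in GCas9, 762, 786 and 692 in Cas9 and 1044, 776 and 1033 in WT (0.44 ± 0.12). The Cas9 libraries and WT replicate 2 were low, and the other 5 libraries were high. Sox11, a factor of young neurons, had 826, 580.3 and 627 against 493, 563 and 429.9 in Cas9 (0.44 ± 0.15).

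The neuroblast list kept a median of 0.32 without GCas9 replicate 3 and 0.35 without Cas9 replicate 1. Its scores in WT (9.17, 8.96 and 9.3) lay mostly with those of GCas9 (9.4, 9.07 and 9.18). Cas9 replicates 2 and 3 (8.91 and 8.73) were below all of these, and Cas9 replicate 1 (9.05) lay above WT replicate 2 and next to GCas9 replicate 2. Some ependymal genes, from the wall of the same ventricle, differed in the same direction. Ccdc153, a gene of ciliated ependyma, had 284, 149 and 210.4 normalized reads in GCas9 and 156, 131 and 90.0 in Cas9 (0.75 ± 0.28). For choroid plexus and ependyma as a whole, 5 of 17 genes were higher in GCas9, with a summed level of 21160, 7671 and 11730 normalized reads in GCas9 and 388000, 7510 and 11330 in Cas9. The part of the tissue taken near the ventricle in these differences was not tested.

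**Figure D3:**
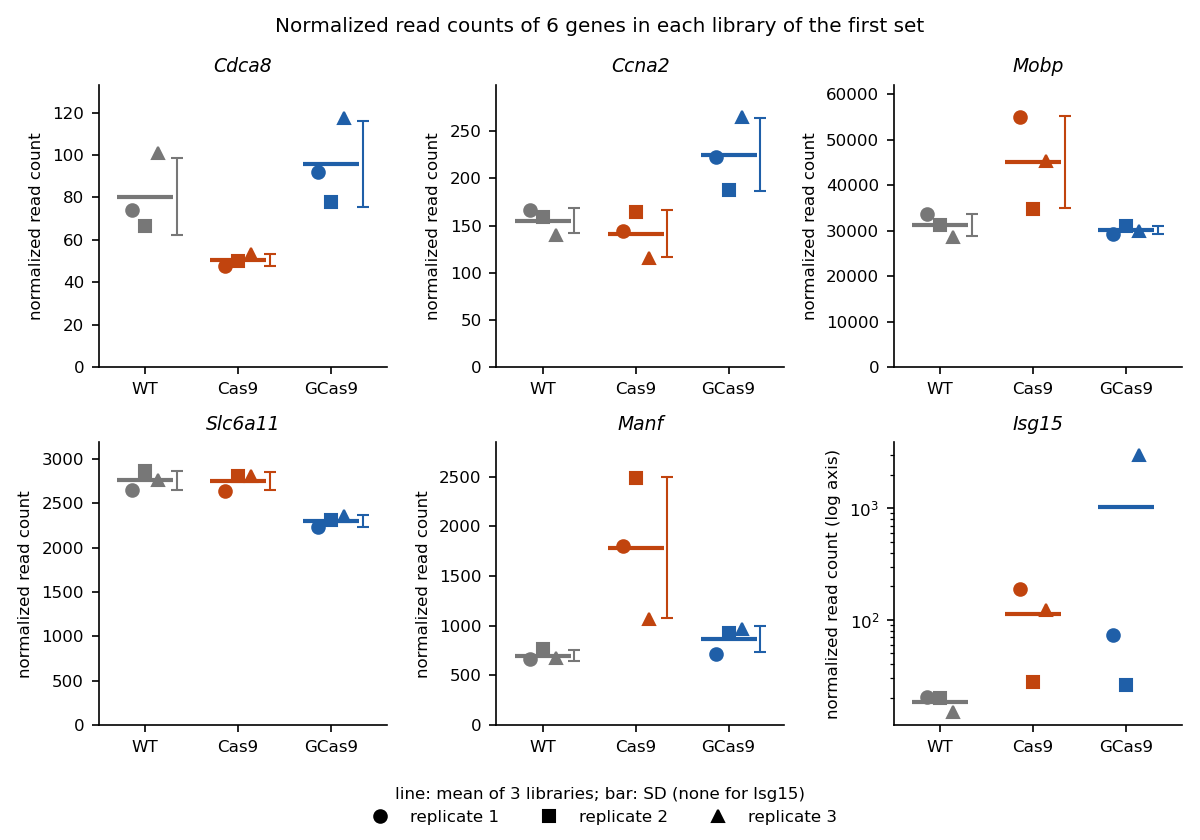
Normalized read counts (vertical axis, log axis for Isg15 and from 0 for the others) of Cdca8, Ccna2, Mobp, Slc6a11, Manf and Isg15 in the 9 libraries of the first set, each symbol 1 library, with the mean as a line and the SD as a bar (none for Isg15). In the first 5 genes all GCas9 libraries lie on 1 side of all Cas9 libraries, while Isg15 runs from 25.9 to 2991 within GCas9. For all of these 5 but Mobp, 1 rule that named them required this.

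Myelin and oligodendrocyte genes were lower in GCas9 than in Cas9, with 0 past the test. All 20 genes of mature oligodendrocytes had a difference below 0, with a median of -0.45, where 54.3% of all genes were above 0. Of these, 12 were apart in the lower direction (4.45% of all genes) and 16 had an unadjusted p under 0.05 (3.07%). The list's mean log2 level was 11.31, 11.33 and 11.57 in GCas9, 12.17, 11.47 and 11.91 in Cas9 and 11.49, 11.36 and 11.21 in WT. Cas9 replicates 1 and 3 were high, and Cas9 replicate 2 lay among the GCas9 and WT libraries.

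Mobp (chr9:120149707-120181484), a protein of compact myelin, had 29287, 30982 and 30026 normalized reads in GCas9, 55012, 34897 and 45430 in Cas9 and 33606, 31373 and 28744 in WT. The GCas9 values were within the WT range, all Cas9 values were above both, and the difference was -0.56 ± 0.15. Mbp, myelin basic protein, had 101630, 95619 and 105650 against 184550, 108210 and 153530 in Cas9 (-0.53 ± 0.19). Tspan2, a membrane protein of myelinating cells, and Ugt8a, which makes the myelin lipid galactocerebroside, differed by -0.52 ± 0.13 and -0.55 ± 0.14.

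Genes of oligodendrocyte precursors and early oligodendrocytes were lower too. Of 15, 14 lay below 0 with a median of -0.31, 6 were apart in the lower direction (4.45% of all genes) and 1 in the higher (4.4%). Olig2, the factor that specifies the lineage, had 559, 682 and 629 normalized reads in GCas9, 863, 761 and 858 in Cas9 and 622, 636 and 726 in WT (-0.41 ± 0.09). Every Cas9 library was above every GCas9 and every WT library. Enpp6, a marker of newly formed oligodendrocytes, had 293, 301 and 322 against 546, 362 and 531 (-0.62 ± 0.15), and Bcas1, of early myelinating cells, differed by -0.51 ± 0.13.

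Gjc3, a connexin of oligodendrocytes, Nfasc (neurofascin), which holds axon and glia together at the node of Ranvier, and Dnajb2, a co-chaperone rich in the nervous system, were among the 10 genes of smallest p in the lower direction. Their differences were -0.54 ± 0.12, -0.33 ± 0.07 and -0.29 ± 0.06. Each was called by DESeq2 on recovered reads, with Slc6a11 as the only other gene, but by neither the main limma fit nor edgeR. Gjc3 and Slc6a11 were also among the genes called with limma weights for single libraries. Nfasc had 9085, 9536 and 8463 normalized reads in GCas9, below all WT libraries (10201, 9940 and 9665), and 12445, 10698 and 11039 in Cas9, above them.

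Levels of neuronal genes were set beside these as a description only. Cas9 replicate 1, the highest for mature oligodendrocytes, was the lowest of the 6 for spiny projection neurons (mean log2 level 12.81, against 12.89 to 13.13 in the other 5). Cas9 replicate 3, second for oligodendrocytes, had 13.1. Without Cas9 replicate 1, 18 of the 20 mature oligodendrocyte genes were lower in GCas9, with a median of -0.3 and 8 at an unadjusted p under 0.05 in this direction (1.76% of all genes in that fit). The part of white matter taken with the tissue was not tested.

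Genes of resting astrocytes were lower in GCas9 than in Cas9, and those of reactive astrocytes had no steady direction. Of 20 genes of homeostatic (resting) astrocytes, 17 lay below 0 in GCas9 with a median of -0.16, and 4 were apart in the lower direction (4.45% of all genes). The list's mean log2 level was 11.89, 11.97 and 11.96 in GCas9, 12.15, 11.98 and 12.13 in Cas9 and 11.84, 11.88 and 11.84 in WT. All GCas9 libraries were thus slightly above all WT libraries for the list, and Cas9 replicates 1 and 3 were the highest. Slc6a11 (GAT3, chr6:114131241-114249952), the transporter with which astrocytes clear GABA, had the smallest p of all genes tested. It had 2227, 2316 and 2358 normalized reads in GCas9, 2637, 2805 and 2808 in Cas9 and 2649.8, 2861 and 2759.5 in WT. All 3 GCas9 libraries lay below all 6 others, which overlapped each other, and the difference was -0.26 ± 0.05 with an interval of -0.37 to -0.15 (limma adjusted p of 0.89).

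Agt, angiotensinogen, which astrocytes make in the brain, had 175, 115 and 163 normalized reads in GCas9 and 261, 289.9 and 306 in Cas9 (-0.94 ± 0.22). Etnppl, an enzyme of phosphoethanolamine breakdown found in astrocytes, had 238, 206 and 176 against 395, 282 and 355 (-0.73 ± 0.15). The connexin Gjb6 and the calcium-binding protein S100b differed by -0.45 ± 0.12 and -0.36 ± 0.11. The WT libraries had 273, 228 and 156 for Agt and 256, 259 and 219 for Etnppl, between the virus groups or overlapping them.

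Genes of reactive astrocytes had a median of 0.17, with 19 of 25 above 0. Of these 25, 0 were apart in the higher direction (4.4% of all genes) and 2 in the lower (4.45%), a share near that of all genes. Gfap, the filament protein that marks reactive astrocytes, had 5400.3, 5069 and 20573 normalized reads in GCas9, 10650, 4650.4 and 11319 in Cas9 and 1768, 1402 and 1319.9 in WT. Both virus groups were far above WT and overlapped each other, with a difference of 0.00 ± 0.53 and an interval from -1.20 to 1.20. Serpina3n, a secreted protease inhibitor of reactive astrocytes, had 679, 1149 and 5598 against 1160.5, 1206 and 1289.6 in Cas9 (0.42 ± 0.62), so GCas9 held both the lowest and the highest library. Without GCas9 replicate 3 the median of the reactive list was -0.27, over the 23 genes then tested.

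Vessel genes were lower in GCas9 in most cases. Of 21 endothelial genes, 17 lay below 0 with a median of -0.19, and 5 were apart in the lower direction (4.45% of all genes). Tek, the angiopoietin receptor of endothelium, had 391, 380.4 and 359.6 normalized reads in GCas9, 524, 452 and 511 in Cas9 and 382, 436 and 419 in WT (-0.39 ± 0.08). Its relative Tie1 differed by -0.39 ± 0.10 and Abcb1a, the drug exporter of the blood-brain barrier, by -0.26 ± 0.07. All 3 genes were highest in the Cas9 libraries. Of 19 genes of mural cells and fibroblasts, 16 lay below 0 with a median of -0.24, among them Abcc9, a channel subunit of pericytes (-0.40 ± 0.14). Col6a1, a collagen chain, went the other way, with 8742, 8066 and 7765 in GCas9 and 3907, 7889.8 and 4354 in Cas9 (0.68 ± 0.25), where Cas9 replicates 1 and 3 were low and Cas9 replicate 2 lay within the GCas9 range. Without Cas9 replicate 1 the endothelial median was -0.07 and the mural median -0.04.

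Manf (chr9:106838312-106891979), a secreted factor made under stress of the endoplasmic reticulum, was among the 5 largest differences in the lower direction of named gene symbols that averaged 50 or more normalized reads and whose groups did not overlap. It had 718, 925 and 962 normalized reads in GCas9, 1802, 2483 and 1067 in Cas9 and 668, 763 and 671 in WT. Cas9 replicates 1 and 2 stood well above all other libraries, Cas9 replicate 3 lay just above GCas9, and the difference was -0.97 ± 0.26. The unfolded protein response as a whole had no such lean: the median of the 27 genes was 0, with 14 above 0 and 13 below. Heat shock genes and chaperones had a median of -0.02. Ngfr, the p75 neurotrophin receptor, had 41.2, 38.9 and 39.6 against 115, 64.1 and 66.8 in Cas9 (-0.97 ± 0.26), while the neuronal injury list that holds it had a median of 0.11.

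The other genes of smallest p had mixed functions, and that their groups are apart follows from the rule that chose them. Higher in GCas9 were Fam179a (0.72 ± 0.17), Clec12a, an inhibitory lectin of myeloid cells (0.58 ± 0.14), Ehbp1l1, an adaptor in membrane traffic (0.23 ± 0.06), Tshz1, a zinc finger factor of the striatum and olfactory bulb (0.25 ± 0.06), and Prkg2, a kinase activated by cyclic GMP (0.52 ± 0.14). Clec12a had 299, 255 and 323 normalized reads in GCas9, 187, 226 and 174 in Cas9 and 254, 239 and 289 in WT, so Cas9 was the low group. Lower in GCas9 were the kinase Srpk3 (-0.66 ± 0.14), the lipid transporter Abca9 (-0.54 ± 0.12) and the cadherin Cdh20 (-0.55 ± 0.12). Srpk3 had 149.6, 159.9 and 163 in GCas9, 295, 205 and 255 in Cas9 and 189.6, 159 and 191 in WT, so all Cas9 libraries were high.

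Of the remaining large differences, some rested on a single library. Steap2, a metal reductase, had 1221 normalized reads in Cas9 replicate 1 against 210.0 and 264 in the other Cas9 libraries, and Trpm3, a cation channel, had 5333 against 1071 and 1073. Both are abundant in choroid plexus. Ttr, transthyretin, the main product of choroid plexus, had 280180, 188 and 1817 in the Cas9 libraries and 10462, 616 and 2711 in GCas9. Cas9 replicate 1 was thus the outlying library for choroid plexus genes, whose median difference was -0.72 with it and 0.92 without it.

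Identity genes of spiny projection neurons did not separate the groups. Of 33 genes, 14 lay above and 19 below 0 with a median of -0.01, and 0 were apart in either direction (8.84% of all genes). The balance of signs moved with the libraries and the scaling: 33 of the 33 genes of spiny projection neurons lay above 0 in males only (median 0.1), 23 with quantile scaling (0.05), 26 without Cas9 replicate 3 (0.04) and 5 without Cas9 replicate 1 (-0.1). Ppp1r1b had 61801, 65020 and 53417 normalized reads in GCas9, 56259, 62337 and 67909 in Cas9 and 64515, 68228 and 65928 in WT. Replicates 1 and 3 of GCas9 and 1 and 2 of Cas9 were below all WT libraries, and the difference was -0.05 ± 0.11 with an interval of -0.29 to 0.19. The dopamine receptors Drd1a and Drd2, which mark the direct and the indirect pathway, differed by 0.04 ± 0.08 (interval -0.15 to 0.23) and -0.07 ± 0.09 (interval -0.27 to 0.13). Penk differed by -0.01 ± 0.12 and Rbfox3, the antigen NeuN of mature neurons, by 0.02 ± 0.08 (interval -0.17 to 0.21). The intervals of the 2 receptors and of Rbfox3 thus exclude differences over 0.3 on this scale in either direction.

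Pdyn (prodynorphin), a peptide of the direct pathway, had 2553, 3272 and 2945 normalized reads in GCas9 and 1742, 3101 and 2140.3 in Cas9 (0.36 ± 0.19), with Cas9 replicates 1 and 3 low and the other 4 libraries high. Medians near 0 were also found for synaptic vesicle release (0.03), glutamate receptors and the postsynaptic scaffold (0.02), GABA synthesis and receptors (0.08) and voltage-gated ion channels (-0.03). Among their members, the vesicle protein Sv2b differed by 0.31 ± 0.11, the vesicle fusion protein Vamp1 by -0.40 ± 0.12, the fusion clamp Cplx1 by -0.15 ± 0.06 and the GABA receptor subunit Gabra2 by 0.30 ± 0.13. Vamp1 and Cplx1 were apart in the lower direction, and Sv2b and Gabra2 overlapped.

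Immediate early genes, which neurons switch on with activity, had a median of 0.11, with 20 of 25 above 0 (54.3% of all genes). In the higher direction 1 of the 25 was apart, a share near the 4.4% of all genes. That gene, Fosb, had 491, 454 and 489 normalized reads in GCas9, 322, 439.8 and 306 in Cas9 and 487, 484 and 517 in WT (0.44 ± 0.13). GCas9 and WT were at about the same level and the Cas9 libraries were below them. Junb differed by 0.30 ± 0.11 with overlap.

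Interferon and antigen presentation genes varied widely between the libraries of each virus group, and the direction of their difference reversed without 1 library. Of 38 type I interferon-stimulated genes, 38 had a difference above 0 with a median of 0.6. Of these, 0 were apart (8.84% of all genes) and 0 had an unadjusted p under 0.05 (5.45% of all genes). Without GCas9 replicate 3, 38 of 38 type I interferon-stimulated genes were below 0 with a median of -0.61. The mean log2 level of the list was 7.16, 6.02 and 10.57 in GCas9, 7.98, 6.05 and 7.62 in Cas9 and 5.56, 5.63 and 5.37 in WT. GCas9 replicate 3 was far above every other library, replicate 2 of both virus groups was nearest to WT, and Cas9 replicates 1 and 3 were above GCas9 replicate 1.

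Isg15 (chr4:156199424-156200818), a ubiquitin-like protein made after interferon and the gene of the fourth promoter shown above, had 73.8, 25.9 and 2991 normalized reads in GCas9, 189, 27.6 and 123 in Cas9 and 20.2, 19.8 and 14.8 in WT. The difference of 1.05 ± 1.50 had an interval of -2.35 to 4.45, which holds large differences in both directions. Gbp5, a GTPase induced by interferon gamma, had 311, 75.6 and 2879 against 269, 87.8 and 306 in Cas9 (1.07 ± 1.10). In both genes GCas9 replicate 3 was the highest of the 6 libraries and replicate 2 of each group the lowest. The list of interferon gamma-inducible GTPases had a median of 0.76 with all libraries and -0.56 without GCas9 replicate 3, and class I antigen presentation 0.42 and -0.72.

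Class II antigen presentation had a median of 0.36 (10 of 11 above 0) and -0.7 without GCas9 replicate 3. H2-Aa, a class II chain, had 734, 245 and 4066 normalized reads in GCas9, 1101, 248 and 1279.5 in Cas9 and 6.74, 12.9 and 21.8 in WT (0.36 ± 0.99), and Cd74, its chaperone, differed by 0.33 ± 1.03. Every virus library was above every WT library in H2-Aa, and the virus groups overlapped each other. The antibody light chain Igkc had 916, 998 and 16701 in GCas9 and 5170.2, 322 and 6976 in Cas9 (0.13 ± 1.33).

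The antibody heavy chain Ighg3 was the one member of the B and plasma cell list with an unadjusted p under 0.05 (0 members in the fit of the 6 virus libraries alone). It had 17.3, 172 and 273 normalized reads in GCas9 and 968, 182 and 1335 in Cas9 (-2.70 ± 1.02). Cas9 replicates 1 and 3 were the highest, and Cas9 replicate 2 lay among the GCas9 libraries. The related chain Ighg2b, by contrast, differed by 1.22 ± 1.08. Whether reads were shared between these similar genes was not tested. Ptprc (CD45), carried by all white blood cells, had 235, 190.2 and 1514 in GCas9, 399, 184 and 458 in Cas9 and 81.8, 94.8 and 85.0 in WT (0.33 ± 0.70).

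The 2 lists of microglial genes had medians of -0.18 and 0.07, which depended on single libraries. Of 18 genes of homeostatic microglia, 15 lay below 0 with a median of -0.18. In this direction 3 had an unadjusted p under 0.05 (3.07% of all genes), and 0 were apart in either direction (8.84% of all genes). In the fit of the 6 virus libraries alone, 0 of the 18 had an unadjusted p under 0.05. Without GCas9 replicate 1, 10 of the 18 lay above 0 (median 0.01), and without GCas9 replicate 3 the median was -0.31. P2ry12, the purine receptor with which resting microglia sense injury, differed by -0.21 ± 0.09, and Gpr34, a lipid receptor, by -0.38 ± 0.15. Genes of activated microglia and macrophages had 14 above and 13 below 0 with a median of 0.07. Without GCas9 replicate 3, 4 lay above and 22 below 0 (median -0.37), without GCas9 replicate 2 21 of 27 lay above 0 (median 0.25), and without Cas9 replicate 2 the median was -0.22. Gpnmb, a glycoprotein of such cells, had 212, 171 and 316 normalized reads in GCas9, 146, 144 and 251 in Cas9 and 20.2, 20.7 and 24.7 in WT. It was several-fold above WT in every virus library, and the virus groups overlapped (0.37 ± 0.28, interval -0.26 to 1.00).

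**Figure D4:**
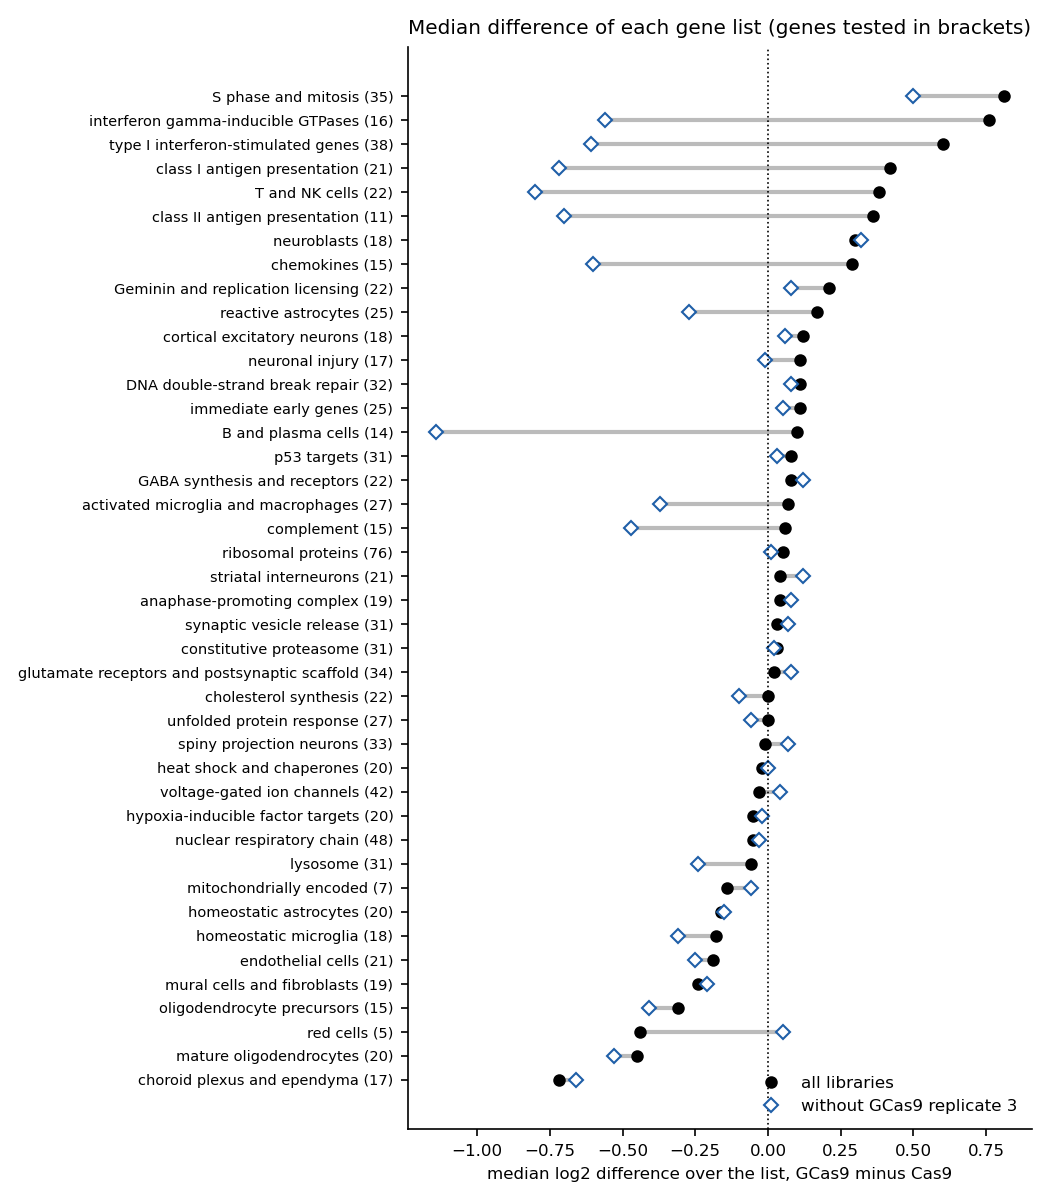
Median log2 difference between GCas9 and Cas9 (horizontal axis) of 42 gene lists, with the number of genes tested in brackets, from all libraries (filled circles) and without GCas9 replicate 3 (open diamonds). Lists of interferon, antigen presentation and T and NK cells cross 0 when this library is left out. For T and NK cells, 22 genes were tested with all libraries and 15 without this library. S phase and mitosis (0.81 and 0.5), neuroblasts (0.3 and 0.32) and mature oligodendrocytes (-0.45 and -0.53) stay on their side.

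Housekeeping groups differed by small amounts. Ribosomal protein genes had a median of 0.05, with 65 of 76 above 0 (54.3% of all genes) and 40 of 76 without GCas9 replicate 3, and 6 were apart in the higher direction (4.4% of all genes). Genes of the constitutive proteasome had a median of 0.03, nuclear genes of the respiratory chain -0.05 (38 of 48 below 0), cholesterol synthesis 0, targets of the hypoxia-inducible factors -0.05 and the lysosome -0.06. The 7 mitochondrially encoded genes were all below 0 with a median of -0.14, and -0.06 without GCas9 replicate 3.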

How the data were processed

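RNA of mouse striatum was sequenced, and each library's columns were matched by title. The authors deposited a signal per gene symbol, read counts divided by 1 DESeq2 size factor per library, here called normalized reads. Build GRCm38.p3, STAR 2.5.2b, HTSeq, SAMtools, R 3.3.3 and DESeq2 are named in the submitters' processing notes. Per the labels' protocols, cDNA was amplified with a SMARTer kit before a Nextera XT library, so reads are not independent molecules. All values were whole multiples of 1 read within 0.001, which gave back whole reads for edgeR and DESeq2. For WT replicate 3 and Cas9 replicate 3 this is less sure, since their size factors (1.0114 and 0.9886) are close to 1.

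Here, log2(normalized count + 1) was fitted with limma 3.58.1 in R 4.3.3 (eBayes with trend, two-sided) over the 9 libraries of the first set. The contrast was GCas9 minus Cas9, over 15924 genes with a mean of at least 10, with Benjamini-Hochberg adjustment and a threshold of 0.05. edgeR 4.0.16 (quasi-likelihood) and DESeq2 1.42.0 on recovered reads were alternatives. A set of 42 gene lists (1038 genes matched, 5 of them by an older symbol) was described by counts and medians, with no set test. The comparison, the lists and the fixed genes were chosen with earlier results of these data known. Named genes were, per direction, the 10 of smallest p and the 5 largest differences averaging 50 or more normalized reads whose groups were apart, leaving out gene models known by a number, then the 3 members of smallest p in each list and the fixed genes. The text gives some of these. Gene positions are from GENCODE M21 by symbol. Procedures were tested on simulated data with the same relative spread for all genes and no outlying library. That test thus does not cover libraries as uneven as these. The viral Cas9 sequence was not analysed here, so the labels were not checked against the cargo.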

Additional observations from a re-analysis of the deposited data

How the results depend on the processing

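The count of 0 called genes was the same under 2 other pseudocounts, 2 other filters, TMM and quantile scaling, edgeR, the 6 virus libraries alone and 8 of 9 fits that each left out 1 library, for which the count ran from 0 to 1. The exception was Zcchc12, higher in GCas9 without Cas9 replicate 2. DESeq2 called 4 genes. Library weights gave 932 calls, with weights of 5.6 for Cas9 replicate 3 and 2.467 for GCas9 replicate 1 and 0.742 or less for the other 4 virus libraries. Those calls took in 16 of 20 mature oligodendrocytes genes and 10 of 18 neuroblasts genes, but 6 of 35 in S phase and mitosis, 1 of them lower in GCas9, where 5.85% of all genes were called. Genes whose groups do not overlap numbered 1408 with all libraries and 2251 to 4062 when 1 virus library was left out, where 2 libraries stand against 3. With 4 alternatives chosen after seeing the data (sex as a term, males only, without replicate 2 of both groups, without Cas9 replicate 1 and GCas9 replicate 3), 0 genes were called.

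Replicate numbers recur in the groups, but the labels give them no meaning. By transcripts, replicate 3 was the female of each group. Cas9 replicate 2 and GCas9 replicate 2 were the most alike of the virus libraries (correlation of log2 levels 0.9933). Deviations of same-numbered Cas9 and GCas9 libraries correlated over genes at 0.09, 0.644 and 0.448, and Cas9 replicate 1 correlated best with GCas9 replicate 3 (0.228), so the numbers were not taken as pairs. The replicate block gave 0 calls (982 genes at an unadjusted p under 0.05).

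Log2 differences of some genes reversed, none of them past the test. With library weights they were -0.15 for Gpnmb, -0.46 for Ighg2b, -0.79 for Gfap, -0.45 for Serpina3n, -0.38 for Isg15, -0.69 for H2-Aa, -0.88 for Cd74, -2.13 for Igkc, -0.91 for Cd8a, -0.65 for Ptprc, -0.074 for Drd1a, -0.021 for Rbfox3, 0.59 for Gmnc and 1.36 for Ttr. In males only they were -0.003 for Gbp5, -0.43 for Gfap, -0.42 for Serpina3n, -0.72 for Isg15, -0.30 for H2-Aa, -0.30 for Cd74, -0.43 for Igkc, -0.36 for Ptprc, 0.10 for Ppp1r1b, 0.067 for Drd2, 0.10 for Penk and -0.006 for Ccng1. Without Cas9 replicate 1 and GCas9 replicate 3 they were -0.10 for Gbp5, -0.47 for Gfap, -0.50 for Serpina3n, -0.41 for Isg15, -0.41 for H2-Aa, -0.32 for Cd74, -0.65 for Igkc, -0.46 for Ptprc, -0.056 for Drd1a, -0.014 for Rbfox3 and 2.12 for Ttr. TMM gave -0.008 for Gfap, and leaving out replicate 2 of both groups -0.059 for Gfap and -0.62 for Igkc. Quantile scaling gave 0.059 for Ppp1r1b and 0.13 for Penk.

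Leaving out 1 library at a time gave ranges of -0.33 to 2.28 for Gbp5, -0.66 to 0.35 for Gfap, -0.46 to 1.06 for Serpina3n, -0.97 to 2.43 for Isg15, -0.73 to 1.29 for H2-Aa, -0.79 to 1.24 for Cd74, -1.27 to 0.94 for Igkc, -0.45 to 1.92 for Cd8a, -0.61 to 0.88 for Ptprc, -0.12 to 0.032 for Ppp1r1b, -0.066 to 0.11 for Drd1a, -0.16 to 0.003 for Drd2, -0.10 to 0.067 for Penk, -0.069 to 0.078 for Rbfox3, -0.019 to 0.20 for Ccng1 and -3.12 to 2.15 for Ttr. The cause of these reversals was not tested. How far read depth set the width of the intervals was not tested.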

Other observations

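The gene of largest difference named by the rule, Eno1b, a near-copy of the glycolysis enzyme gene enolase 1, had 352, 351 and 630 normalized reads in GCas9 and 2.08, 341 and 345 in Cas9. In WT it had 378, 0.862 and 395, so 1 Cas9 and 1 WT library stood apart from the other 7. The gene model Gm15487, chosen after its values were seen, had 728 normalized reads in that Cas9 library (replicate 1) and 775 in that WT library (replicate 2), and 11.3 or fewer in the others. The 2 symbols were thus high in different libraries of the set, in both a virus group and WT. The log2 difference of Eno1b was 2.58 ± 2.31 (SE) with all libraries and 0.32 without Cas9 replicate 1.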
